A study of Mus musculus with 18 samples.

Results

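The NMDA and delta glutamate receptor subunits were followed through the retinas of diabetic and normoglycemic mice, with and without a cysteine-donating drug. The members were picked out by gene symbol: Grin1, Grin2a, Grin2b, Grin2c, Grin2d, Grin3a, Grin3b and Grid1. All 8 symbols were found among the 35006 gene names of the count files, and 7 of the 8 had enough reads to be tested, the exception being Grin3b.

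The NMDA receptor is a calcium-permeable glutamate channel built around the GluN1 subunit encoded by Grin1. GluN1 pairs with GluN2 subunits, encoded by Grin2a to Grin2d, which bind glutamate and set the speed of the channel and its block by magnesium, or with GluN3 subunits, encoded by Grin3a and Grin3b, which bind glycine. The channel opens only when its glycine site is also filled, by glycine or D-serine. Grid1 encodes the delta subunit GluD1, which resembles these subunits but acts mainly as a synaptic organiser that binds cerebellins and, through them, neurexins. In the retina NMDA receptors are known mostly from ganglion cells and amacrine cells of the inner layers, and the photoreceptors that supply most of the RNA use little of them.

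Retinal RNA was sequenced in 18 libraries from male mice at 24 weeks of age. WT (n = 3) and WT + NACET (n = 6) libraries came from C57BL/6J mice, and Akita (n = 4) and Akita + NACET (n = 5) libraries from heterozygous C57BL/6-Ins2Akita/J mice, in which a mutant insulin gene causes insulin-dependent diabetes soon after weaning. NACET, the N-acetylcysteine ethyl ester, was dissolved in the drinking water (0.33 mg/mL, a dose of 50 mg/kg each day) of 2 groups from 4 weeks of age, and the other 2 groups drank plain water. Whether a library is 1 animal is not given in the sources used here, so the p-values below measure the spread between these libraries.

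The libraries held between 11495596 and 17814479 reads in genes. The reads that fell outside annotated exons made up 9.67 to 13.3% in the Akita libraries, 14.9 to 17.1% in WT, 14.3 to 19.8% in Akita + NACET and 9.55 to 16.5% in WT + NACET, so this measure differed between the groups compared here, and Akita and Akita + NACET did not overlap in it. Akita replicate 4 stood apart from the other Akita libraries: with it left out, the genes called between Akita + NACET and Akita fell from 1562 to 1 of those tested. WT + NACET replicate 5 also stood apart from its group. Its counts differed from those of the other WT + NACET libraries by a mean chi-square per gene of 39.7 to 51.1. For Akita replicate 4 within its group this was 28.2 to 51.7. Without WT + NACET replicate 5, the genes called in WT + NACET against WT went from 240 to 153. Retinal markers were present in every library and no list was at 0 throughout, while summed lens markers reached 11180 CPM (counts scaled to the library size) in 1 WT + NACET library against 0.379 CPM at the lowest. Summed pigment epithelium markers ranged from 56.5 to 1386 CPM and differed between groups. They ran from 142 to 525 CPM in WT and from 320 to 1386 CPM in WT + NACET. In Akita they ran from 56.5 to 211 CPM and in Akita + NACET from 86.6 to 657 CPM.

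The subunits share a conserved signature at the end of the third membrane-spanning segment, the part that forms the channel gate. The 27 coding bases of this signature are shown for 6 members because they let a reader see how close the members are in the region where their reads could most easily be confused. They were read from the annotated transcripts of mm9, 5′ to 3′ on the coding strand, and capitals mark the bases that differ from Grin1.
Grin1: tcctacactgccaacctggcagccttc
Grin2a: AGTtacacAgccaacctggcTgccttc
Grin2c: AGctacacGgccaaTctggcagccttc
Grin3a: AcAtacacAgcGaacTtggcTgcTGtc
Grin3b: AGTtacacAgccaacctggcagcTGtc
Grid1: tcctacacAgccaacctggcCgcTttc

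Of the 5 members set against Grin1 here, Grid1 kept the most of its 27 bases, 24, and Grin3a kept the fewest, 19. Grin2a and Grin3b also had 24 bases in common. In Grin1 the stretch lies in exon 15 of 21 at chr2:25152719-25152745 on the minus strand. In Grid1 it lies in exon 12 of 16 at chr14:36265527-36265553 on the plus strand. Despite this likeness, none of the members shared a 50-base stretch of protein-coding transcript with another member. Only protein-coding transcripts were searched. In them, stretches of 50 bases shared with another gene made up 0.729% of those of Grin3b and 0.538% or less in the other members. Exons of Grin1 overlap the antisense gene E130003G02Rik over 1307 bases (13.5% of its exon length) and those of Grin3b overlap ORF61 over 1059 bases (32.1%). The counting ignored strand, so reads in these overlaps cannot be assigned to one of the genes.

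Compared per kilobase of exon, which allows levels of different genes to be set side by side, Grin1 and Grin2d were the most abundant members in the WT retina. Grin1 stood at 2.87 ± 0.405 CPM per kb (SD, n = 3) and Grin2d at 2.33 ± 0.237 CPM per kb, and their libraries overlapped. Grid1 followed at 1.004 ± 0.207 CPM per kb, below every Grin2d library. Grin2b (0.656 ± 0.222), Grin3a (0.434 ± 0.103), Grin2a (0.275 ± 0.137), Grin2c (0.155 ± 0.0773) and Grin3b (0.0724 ± 0.0220 CPM per kb) came next, each overlapping its neighbour in this order. In the Akita libraries the order opened with Grin2d at 3.02 ± 1.79 CPM per kb (n = 4) and Grin1 at 1.97 ± 0.284 CPM per kb, again overlapping. In Akita + NACET (n = 5) Grin1 at 3.09 ± 0.368 CPM per kb lay above every library of Grin2d at 1.96 ± 0.434 CPM per kb. The place of Grin1 depends on the length used: its exons span 9700 bases over all annotated transcripts but 4276 in the longest one. Scaled to the longest transcript, Grin1 led in all groups, at 6.52 ± 0.919 CPM per kb in WT against 2.51 ± 0.255 for Grin2d, with no overlap, and at 4.47 ± 0.644 against 3.26 ± 1.93 CPM per kb in Akita, with overlap. Grin3a, with 15779 and 7491 bases by the same measures, then stood above Grin2b in WT (0.915 ± 0.216 against 0.717 ± 0.242 CPM per kb), again overlapping.

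**Figure D1:**
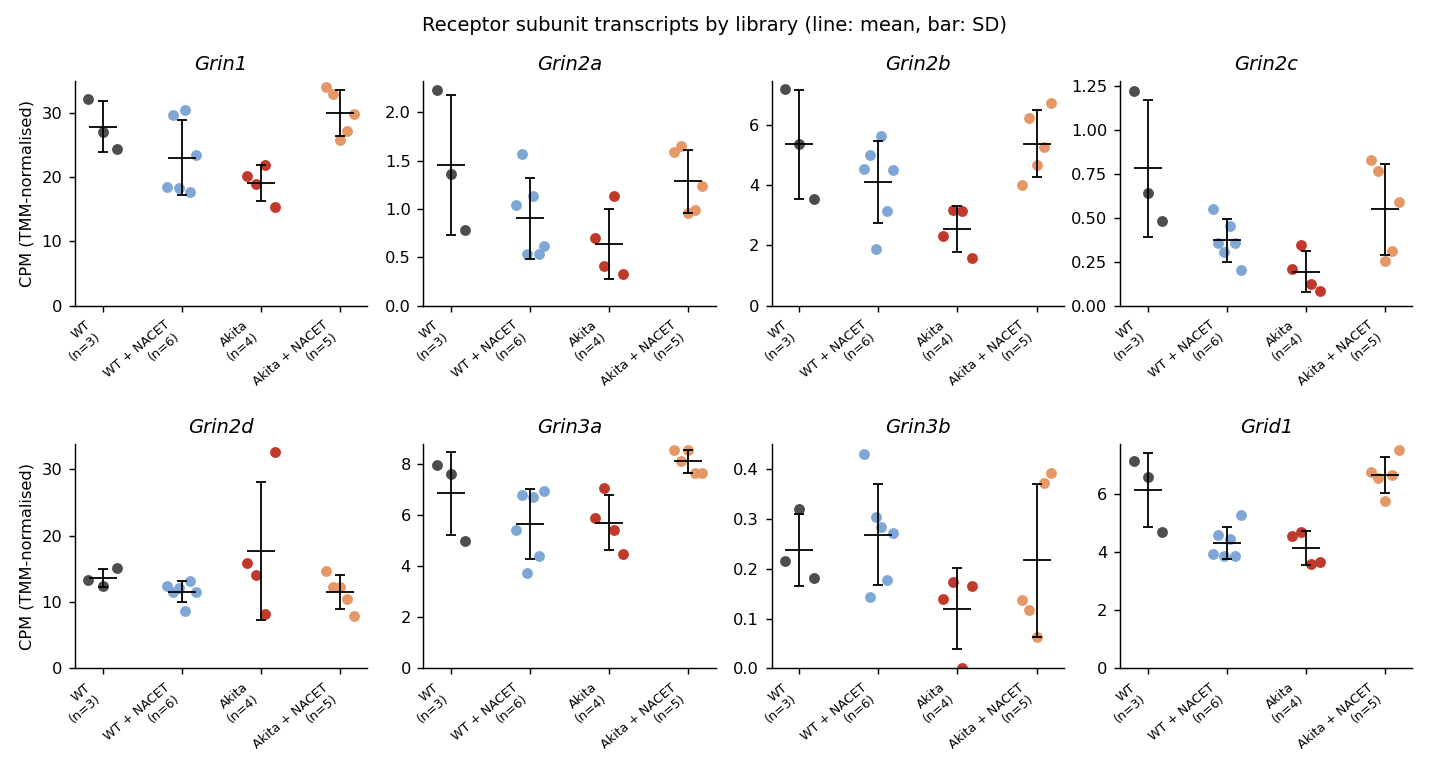
Level of each subunit gene in CPM (vertical axis, from 0, a scale for each gene) in every library of the 4 groups; points are libraries, the horizontal line is the mean and the bar the SD. For Grin1, Grin2b, Grin2c and Grid1 the Akita points lie below all WT points, while the Grin2d point of Akita replicate 4 stands at 32.6 CPM, above all other libraries.

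The first comparison, Akita against WT, asked how the subunits stood in the diabetic retina. Grin2b and Grin2c fell, and the other 5 tested members did not pass the test. Both that fell encode glutamate-binding GluN2 subunits. The count of 2 members of 7 called lower compares with 3.68% of all 16183 tested genes called lower. That share rests on few libraries: the genes called in either direction went from 1237 to 234 without Akita replicate 4 and to 0 without WT replicate 1 or without WT replicate 2. The median log2 difference of the 7 members was -0.56, against -0.01 over all tested genes. In 4 members (Grin1, Grin2b, Grin2c, Grid1) every Akita library lay below every WT library, which 12% of all tested genes also showed.

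Grin2b, which encodes the slowly deactivating GluN2B, measured 7.18, 5.36 and 3.55 CPM in the WT libraries. It measured 2.31, 3.18, 3.14 and 1.57 CPM in the Akita libraries. The groups did not overlap, although the lowest WT library came close to the highest Akita ones. The difference was -1.05 ± 0.31 on the log2 scale (SE, adjusted p = 0.0458 in edgeR's quasi-likelihood test). In bulk tissue, fewer cells that express a gene and less RNA per cell cannot be told apart.

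Grin2c, which encodes GluN2C, a subunit with weak magnesium block, was rare, with 1 to 17 reads per library over all groups. It measured 1.22, 0.640 and 0.482 CPM in WT and 0.210, 0.347, 0.126 and 0.0829 CPM in Akita. The groups did not overlap, and the difference was -1.92 ± 0.53 (adjusted p = 0.0346). With 1 to 6 reads in each Akita library, the size of this difference is known only roughly. DESeq2 gave no adjusted p for Grin2c in this comparison, and with a mean count of at least 50 the gene was not tested.

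These calls rested on few libraries. Without WT replicate 1, WT replicate 2 or Akita replicate 1, 3 or 4, neither gene passed, with adjusted p-values of 0.239, 0.126, 0.0847, 0.0504 and 0.123 for Grin2b and of 0.209, 0.0904, 0.0567, 0.0669 and 0.0972 for Grin2c, while the differences kept their direction. Once the share of reads outside exons entered the fit, the adjusted p-values were 0.561 and 0.439, and the differences -0.50 and -1.14.

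Grin1 and Grid1 lay just outside the threshold. Grin1, the subunit every NMDA receptor needs, measured 32.2, 27.02 and 24.4 CPM in WT and 20.2, 18.9, 21.9 and 15.4 CPM in Akita, and the groups did not overlap. Its difference was -0.54 ± 0.18 (adjusted p = 0.0684). Grid1 measured 7.11, 6.56 and 4.70 CPM in WT and 4.56, 4.69, 3.58 and 3.65 CPM in Akita, the nearest libraries being at 4.70 and 4.69 CPM, with a difference of -0.56 ± 0.17 (adjusted p = 0.0517). In DESeq2, fitted to all groups, both had adjusted p-values below the threshold, 0.0498 for Grin1 and 0.0429 for Grid1. Grid1 also passed without WT replicate 3 (0.0224) or Akita replicate 2 (0.0467).

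Among the remaining members, Grin2a, which encodes the fast GluN2A of mature synapses, measured 2.23, 1.36 and 0.783 CPM in WT and 0.701, 0.405, 1.13 and 0.332 CPM in Akita. The groups overlapped, and the difference of -1.14 ± 0.45 did not pass (adjusted p = 0.112). Grin3a, whose product lowers calcium flow through the receptor, differed by -0.25 ± 0.21 (adjusted p = 0.463).

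Grin2d was the only tested member with a positive estimate in this comparison, and 1 library decided it. It encodes GluN2D, the slowest of the GluN2 subunits. It measured 13.3, 12.5 and 15.2 CPM in WT and 15.9, 14.1, 8.16 and 32.6 CPM in Akita. The Akita libraries thus included both a low and a very high value, and Akita replicate 4 exceeded all other 17 libraries. The difference was 0.36 ± 0.31 (adjusted p = 0.471), and without Akita replicate 4 it was -0.10.

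The second comparison, Akita + NACET against Akita, asked what the drug changed in the diabetic retina. Grin1, Grin2b and Grid1 rose, and none fell. The 3 of 7 called higher compare with 4.51% of all tested genes called higher, and the median log2 difference of the members was 0.68 against 0.00 over all tested genes. This comparison and the first share the 4 Akita libraries, so their values are not independent of each other. In 4 members (Grin1, Grin2b, Grin3a, Grid1) every Akita + NACET library lay above every Akita library, as did 6.69% of all tested genes.

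Grin1 measured 34.0, 32.9, 25.7, 27.2 and 29.9 CPM in Akita + NACET, above the 15.4 to 21.9 CPM of Akita and within or just above the 24.4 to 32.2 CPM of WT. It rose by 0.65 ± 0.16 on the log2 scale (adjusted p = 0.0239). Grin2b measured 4.00, 6.25, 4.66, 5.28 and 6.73 CPM, above the 1.57 to 3.18 CPM of Akita, and rose by 1.06 ± 0.28 (adjusted p = 0.0291). Both genes showed no overlap between the groups.

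Grid1 measured 6.75, 6.54, 5.74, 6.65 and 7.51 CPM in Akita + NACET, against 3.58 to 4.69 CPM in Akita. It rose by 0.68 ± 0.15 (adjusted p = 0.0204), the smallest adjusted p of the members in this comparison. Its libraries in the treated diabetic group were close together, with an SD of 0.629 CPM around a mean of 6.64 CPM.

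Of the members that did not pass, Grin3a measured 8.54, 8.13, 8.55, 7.64 and 7.64 CPM in Akita + NACET and 5.89, 7.06, 5.40 and 4.48 CPM in Akita. Although the groups did not overlap, the difference of 0.50 ± 0.19 missed the threshold (adjusted p = 0.0875). Grin2c differed by 1.42 ± 0.50 (adjusted p = 0.0683) and Grin2a by 0.98 ± 0.41 (adjusted p = 0.120). The estimate for Grin2d was negative, -0.61 ± 0.27 (adjusted p = 0.140), with 14.7, 12.2, 12.3, 10.4 and 7.84 CPM in Akita + NACET, and it was -0.15 without Akita replicate 4. Without Akita replicate 3 it was -0.85 and passed (adjusted p = 0.0380).

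Here too single libraries mattered. No member passed without Akita replicate 4 (adjusted p = 0.0818 for Grin1, 0.0893 for Grin2b and 0.0664 for Grid1) or without Akita + NACET replicate 5 (0.0607, 0.0790 and 0.0571), and only Grid1 without Akita + NACET replicate 2 (0.0558 for Grin1 and 0.0667 for Grin2b). Grin2b also missed the threshold without Akita replicate 1 (0.0618), and Grin2c passed without Akita replicate 2 (0.0457) or Akita + NACET replicate 3 (0.0431). Once reads outside exons entered the fit as a share, no member and no gene of all tested was called, and the differences of Grin1, Grin2b and Grid1 were 0.39, 0.50 and 0.50.

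**Figure D2:**
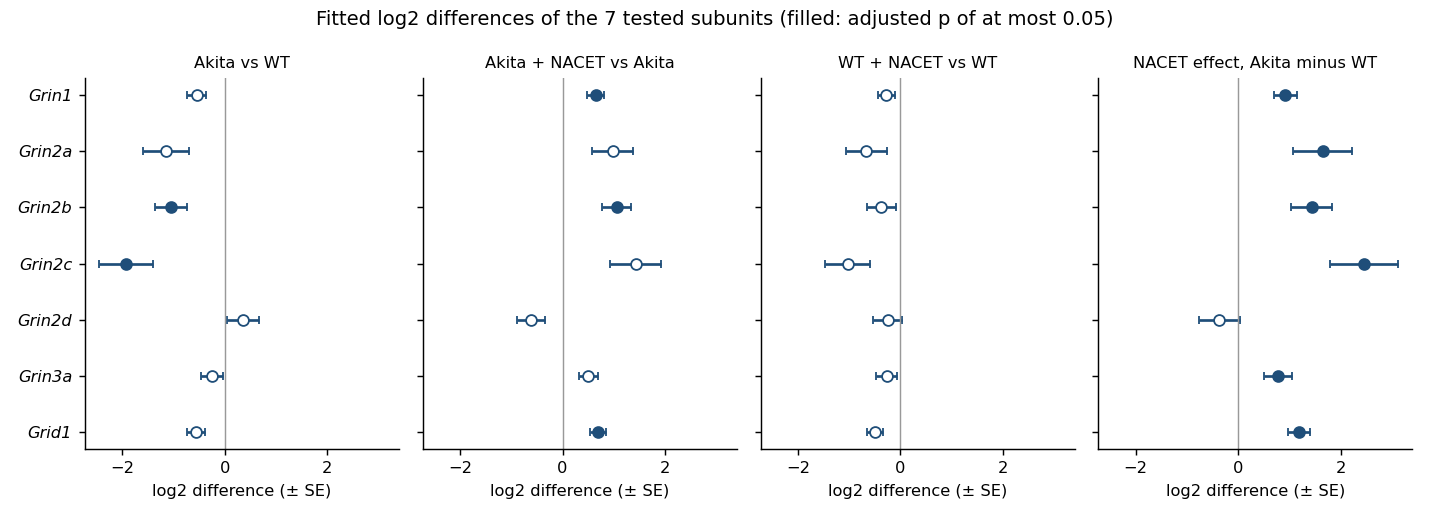
Fitted log2 difference (horizontal axis, bar: SE) of the 7 tested subunits in 3 comparisons and in the difference between the NACET effects of the genotypes; filled points have an adjusted p of at most 0.05. Grin2b is filled in the first, the second and the last panel, and Grin2d is open throughout.

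In the normoglycemic retina NACET left no member past the threshold. In WT + NACET against WT, 0 of 7 members were called by edgeR, with 1.48% of all tested genes called, and 2 members had an unadjusted p under 0.05. DESeq2, fitted to all groups, called 0 of the 6 members to which it gave an adjusted p, and 712 of 14806 genes. All 7 estimates were negative, with a median of -0.37 against -0.01 over all tested genes. Grid1 came nearest at -0.50 ± 0.16 (adjusted p = 0.107). Its WT + NACET libraries ranged from 3.86 through a median of 4.18 to 5.25 CPM, and the highest of them overlapped the lowest WT library. Grin1 ranged from 17.7 through 21.0 to 30.5 CPM in WT + NACET and differed by -0.27 ± 0.17 (adjusted p = 0.368). The WT libraries enter both this comparison and that of Akita with WT.

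Set directly against each other, the NACET effects of the genotypes differed for most members. The interaction term, the NACET effect in Akita minus that in WT, was called positive for 6 of 7 members, against 10.1% of all tested genes called positive. The median of the members was 1.18 on the log2 scale and that of all tested genes 0.00. The interaction term was 1.18 ± 0.22 for Grid1 (adjusted p = 0.00282), 0.92 ± 0.23 for Grin1 (0.0118), 1.43 ± 0.40 for Grin2b (0.0179) and 2.45 ± 0.66 for Grin2c (0.0158). The members did not vary independently, so the member counts in every comparison are not counts of separate observations. With group means taken out, pairs without Grin2d correlated at 0.32 (Grin2a and Grid1) to 0.80 (Grin2b and Grin3a). Pairs with Grin2d correlated at -0.61 (Grin2b) to -0.12 (Grin2c).

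The terms of Grin2a (1.64 ± 0.57, adjusted p = 0.0467) and Grin3a (0.77 ± 0.27, adjusted p = 0.0493) lay at the edge of the threshold, and Grin2d did not pass (-0.37 ± 0.40, adjusted p = 0.531). Grid1 and Grin1 were the 2 members still called without WT replicate 1, with adjusted p-values of 0.0146 and 0.0461. In that setting Grin2b reached 0.0747 and Grin2c 0.0736. Grin2a lost its call without WT replicate 1 or 2, Akita replicate 1, 2 or 4, Akita + NACET replicate 1, 2 or 5 or WT + NACET replicate 3, 5 or 6 (adjusted p up to 0.193). Grin3a lost it without WT replicate 1 or 2, Akita replicate 1, 3 or 4, any Akita + NACET library or WT + NACET replicate 1, 3 or 5 (adjusted p up to 0.1499). With reads outside exons as a term in the fit, no interaction passed, and those of Grid1 and Grin1 were 0.86 (adjusted p = 0.442) and 0.48 (adjusted p = 0.672).

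Treated diabetic retinas were also set against both WT groups. Against WT, 0 of 7 members were called in Akita + NACET by edgeR, 0 had an unadjusted p under 0.05, and 0.00618% of all tested genes were called. DESeq2, fitted to all groups, called 0 of 8 members and 11 of 17415 genes. The estimates ran from -0.49 ± 0.44 for Grin2c to 0.25 ± 0.20 for Grin3a, with a median of 0.01. A missed threshold does not show that the levels were equal.

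Against WT + NACET, Grid1 and Grin3a were higher in Akita + NACET, 2 of 7 members where 6.01% of all tested genes were called higher. Grid1 differed by 0.62 ± 0.14 (adjusted p = 0.00749) and Grin3a by 0.52 ± 0.17 (adjusted p = 0.0458). In both genes every Akita + NACET library lay above every WT + NACET library, as in 3% of all tested genes. Grin3a ranged from 3.72 through 6.05 to 6.95 CPM in WT + NACET. Leaving out any of the Akita + NACET libraries, or WT + NACET replicate 1, 3 or 5, left Grin3a outside the threshold, with adjusted p-values between 0.0645 and 0.104, whereas Grid1 passed without each library of these groups in turn. Grin1 passed as well without WT + NACET replicate 2 (0.0353) or 4 (0.0330).

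Grin3b, the second GluN3 gene, was barely detected. It had 0 to 7 reads per library and did not reach the expression filter, so no difference was tested in the fit used here. The library with no read, Akita replicate 3, allows a level of up to 0.188 CPM (3 counts, counting error only), and the highest library reached 0.430 CPM. With no filter its difference between Akita and WT was -0.94 ± 0.78 (adjusted p = 0.552).

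The make-up of the GluN2 transcripts was described by the share of each gene in the summed per-length level of Grin2a to Grin2d, with no test. Grin2d held the largest share in every group, at 68.6 ± 9.94% in WT, 72.5 ± 8.88% in WT + NACET, 82.9 ± 10.9% in Akita and 65.5 ± 7.96% in Akita + NACET. Grin2b came second, at 19.0 ± 5.09% in WT, 11.1 ± 6.67% in Akita and 22.8 ± 6.83% in Akita + NACET. In single libraries the share of Grin2d reached 95.3% in Akita and went down to 53.2% in Akita + NACET, and the Akita range of 69.1 to 95.3% overlapped that of every other group.

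**Figure D3:**
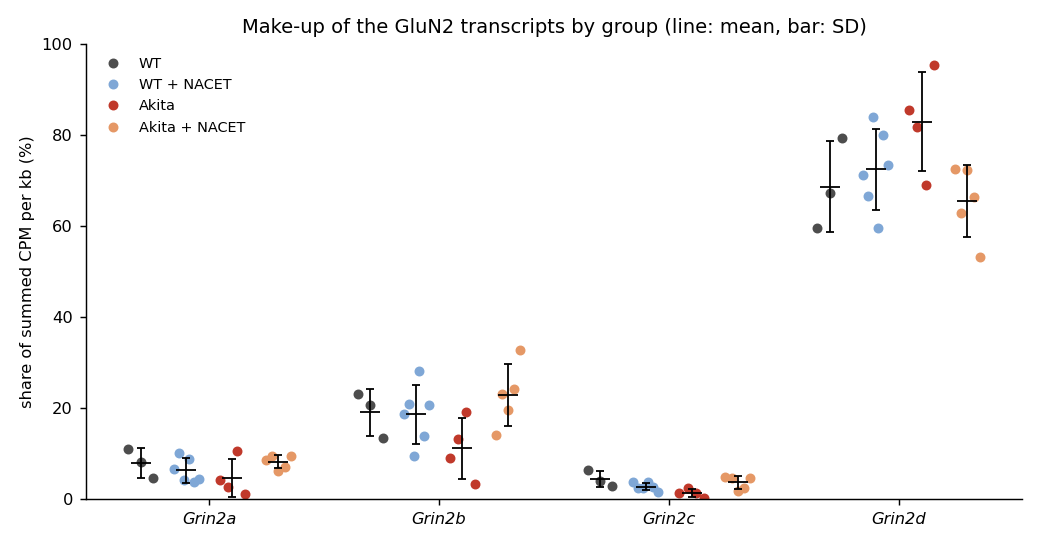
Share (%) of each GluN2 gene in the summed CPM per kb of Grin2a to Grin2d (vertical axis) in the 4 groups; points are libraries, the line is the mean and the bar the SD. Grin2d is the largest component everywhere, with a mean of 82.9% in Akita and 65.5% in Akita + NACET, and the groups overlap.

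The 4 groups of genes that work with these receptors were described next. The delta receptor partners, the neurexins, cerebellins and C1q-like proteins through which GluD1 links to the presynaptic side, had the largest share called of the 4 lists in the first 2 comparisons. Of 12 tested, 4 were called lower and 0 higher in Akita against WT (list median -0.64), and 5 were called higher and 0 lower in Akita + NACET against Akita (list median 0.62), where 3.68% and 4.51% of all tested genes were called in these directions. In WT + NACET against WT none was called by edgeR (list median -0.37).

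Like the members, these lists lost their calls with single libraries. Without WT replicate 1 or 2 no gene of the 4 lists was called in Akita against WT. Without Akita replicate 4, Dlg4 was still called in Akita against WT (0.49, adjusted p = 0.0301) and in Akita + NACET against Akita (-0.58, adjusted p = 0.0143). In the second of these it was the only gene of all tested that was called. In the first, 1 delta receptor partner was also still called, lower in Akita. Without Akita + NACET replicate 5, 1 scaffold gene was called lower in Akita + NACET against Akita, and no gene of the other lists was called.

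Nrxn3, a neurexin, fell from 80.3 ± 10.1 CPM in WT (n = 3) to 38.4 ± 4.95 CPM in Akita (n = 4), by 1.06 ± 0.25 on the log2 scale (adjusted p = 0.0245). It stood at 72.9 ± 21.0 CPM in Akita + NACET (n = 5), higher than in Akita by 0.92 ± 0.23 (adjusted p = 0.0250). Cbln4, a cerebellin, differed by -0.84 ± 0.22 in Akita (adjusted p = 0.0283). Cbln2 rose by 0.75 ± 0.17 with NACET in Akita (adjusted p = 0.0206), from 48.1 ± 4.84 to 80.8 ± 20.8 CPM.

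Among the 23 genes of NMDA receptor scaffold and trafficking, 2 were called higher and 3 lower in Akita against WT (list median -0.32), and 3 higher and 2 lower in Akita + NACET against Akita (list median 0.21). Over all tested genes, 3.96% were called higher and 3.68% lower in Akita against WT. With NACET in Akita, 4.51% were called higher and 5.14% lower. The called scaffold genes went in both directions. Dlg4, which encodes PSD-95, the main postsynaptic anchor of GluN2 tails and also a protein of photoreceptor terminals, rose in Akita by 0.66 ± 0.13 (adjusted p = 0.0151), from 261.8 ± 17.5 to 412 ± 90.9 CPM. It stood at 246 ± 11.5 CPM in Akita + NACET, a difference of -0.74 ± 0.11 from Akita (adjusted p = 0.0104). In WT it rose with NACET by 0.52 ± 0.12 (adjusted p = 0.0289). Lin7c, which encodes a partner in the kinesin-driven transport of GluN2B, had differences of 0.56 ± 0.14 in Akita against WT (adjusted p = 0.0235) and -0.40 ± 0.12 with NACET in Akita (adjusted p = 0.0377).

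Homer2 and Dlgap2, adaptors of the postsynaptic density, went the other way in Akita, with differences of -0.88 ± 0.19 (adjusted p = 0.0168) and -0.83 ± 0.22 (adjusted p = 0.0315). With NACET in Akita, Homer2 rose by 0.65 ± 0.17 (adjusted p = 0.0291) and Shank2, a scaffold that joins Homer to the anchoring proteins, by 0.55 ± 0.16 (adjusted p = 0.0410).

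The calcium and kinase effectors downstream of the receptor were called at shares near those of all tested genes in Akita against WT. Of 22 tested, 0 were called higher and 1 lower there (list median -0.17), where 3.68% of all tested genes were called lower. In Akita + NACET against Akita, 2 were called higher and 0 lower (0.08), where 4.51% of all tested genes were called higher. In WT + NACET against WT, 0 were called higher and 2 lower (-0.05), where 101 of the 16183 tested genes were called lower. Cdk5r1, which encodes the p35 activator of the kinase CDK5, was the gene called in all 3 comparisons. It measured 58.9 ± 8.39 CPM in WT, 39.5 ± 8.22 CPM in WT + NACET, 38.6 ± 3.94 CPM in Akita and 58.2 ± 7.81 CPM in Akita + NACET. Src, whose kinase phosphorylates GluN2 subunits, rose with NACET in Akita by 0.56 ± 0.16 (adjusted p = 0.0397). Tiam1, a Rac activator that binds the receptor, differed by -0.87 ± 0.16 between WT + NACET and WT (adjusted p = 0.00694).

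Of the genes for glycine-site co-agonist supply, 11 of 13 were tested, with 0 called higher and 2 lower in Akita against WT (list median -0.35), 1 higher and 0 lower in Akita + NACET against Akita (0.08) and none called by edgeR in WT + NACET against WT (0.06). Set beside the 3.68% of all tested genes called lower in Akita and the 4.51% called higher with NACET, these are counts of few genes, and all of them encode glycine transporters. Slc6a5, which encodes the neuronal transporter GlyT2, differed by -1.06 ± 0.29 in Akita (adjusted p = 0.0316) and by 0.90 ± 0.26 with NACET in Akita (adjusted p = 0.0354). Slc6a9, which encodes GlyT1 of glycinergic amacrine cells, differed by -0.66 ± 0.18 in Akita (adjusted p = 0.0365).

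**Figure D4:**
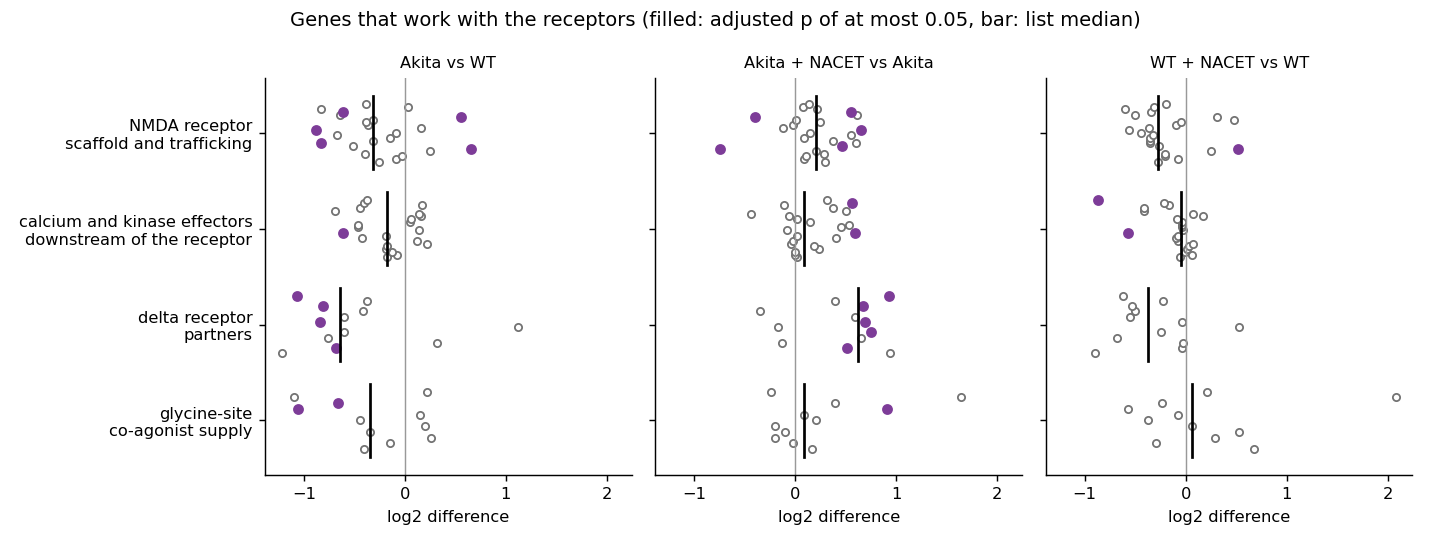
Fitted log2 difference (horizontal axis) of every tested gene in the 4 lists of receptor partners in 3 comparisons; filled points have an adjusted p of at most 0.05 and the black bar is the list median. The delta receptor partners have medians of -0.64 (Akita vs WT) and 0.62 (the NACET effect in Akita), while the scaffold list has filled points on both sides of 0.

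Markers of other cell types moved with the same comparisons. Of the amacrine cell markers, 5 of 8 tested were called lower and 0 higher in Akita against WT (list median -0.61) and 2 higher and 0 lower in Akita + NACET against Akita (0.40). Slc6a5 and Slc6a9 are in this list and in the glycine-site list, so their calls were counted in both. The amacrine counts compare with 3.68% of all tested genes called lower in Akita and 4.51% called higher with NACET. The amacrine markers summed to 1360 to 2054 CPM in WT, 708 to 1482 CPM in Akita and 1054 to 1566 CPM in Akita + NACET. Of the rod markers, 3 of 8 were called higher and 0 lower in Akita against WT (list median 0.41), and 5 lower and 0 higher in Akita + NACET against Akita (-0.41). Of all tested genes, 3.96% and 5.14% were called in these directions. They summed to 91497 to 125366 CPM in WT, 131464 to 200357 CPM in Akita and 85160 to 115110 CPM in Akita + NACET. In the interaction, 7 of 8 rod markers and 3 of 7 cone markers were called negative, where 10.2% of all tested genes were, and 3 of 8 amacrine markers were called positive, where 10.1% were. The list medians were -0.75, -0.77 and 0.66. Of the cone markers, 0 of 7 were called in Akita against WT (list median 0.28), and 3 were called lower in Akita + NACET against Akita (-0.46). Of 6 vascular endothelium markers, 1 was called lower in Akita against WT (list median -1.01). With NACET in Akita, 1 of them was called higher (0.83), and in the interaction 1 was called positive (1.34). No amacrine or rod marker found in the files was at 0 in all libraries.

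The retinal ganglion cell markers, 10 tested, had none called by edgeR in either comparison (list medians -0.42 and 0.30), and summed to 1327 to 2080 CPM in WT, 665 to 1599 CPM in Akita and 1158 to 1732 CPM in Akita + NACET. The part of these marker levels in the subunit results was not tested.

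The share of reads outside exons differed between the groups in which Grin1 and Grin2b differed. In the plots of level against that share, the 4 Akita libraries, with 9.67 to 13.3% of reads outside exons, held the lower Grin1 values of 15.4 to 21.9 CPM, and the 5 Akita + NACET libraries, with 14.3 to 19.8%, held 25.7 to 34.0 CPM. Over the 18 libraries, the Pearson correlation of log2 CPM with this share ran from 0.647 (Grin3a) to 0.773 (Grid1) in the tested members other than Grin2d. With the group means taken out, it ran from 0.405 (Grin3a) to 0.581 (Grin2c). For Grin2d the values were -0.285 and -0.232. The part of this share in the group differences was not tested. Within WT + NACET alone the Grin1 values were uneven. Grin1 measured 29.7 CPM in replicate 2 (16.5% outside exons), 18.5 CPM in replicate 1 (14.7%), 30.5 CPM in replicate 4 (13.95%), 17.7 CPM in replicate 5 (11.3%), 18.4 CPM in replicate 3 (10.4%) and 23.4 CPM in replicate 6 (9.55%). Grin2d went another way, with its highest value, 32.6 CPM, in a library with 10.2% outside exons and its lowest, 7.84 CPM, in the library with 19.8%.

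**Figure D5:**
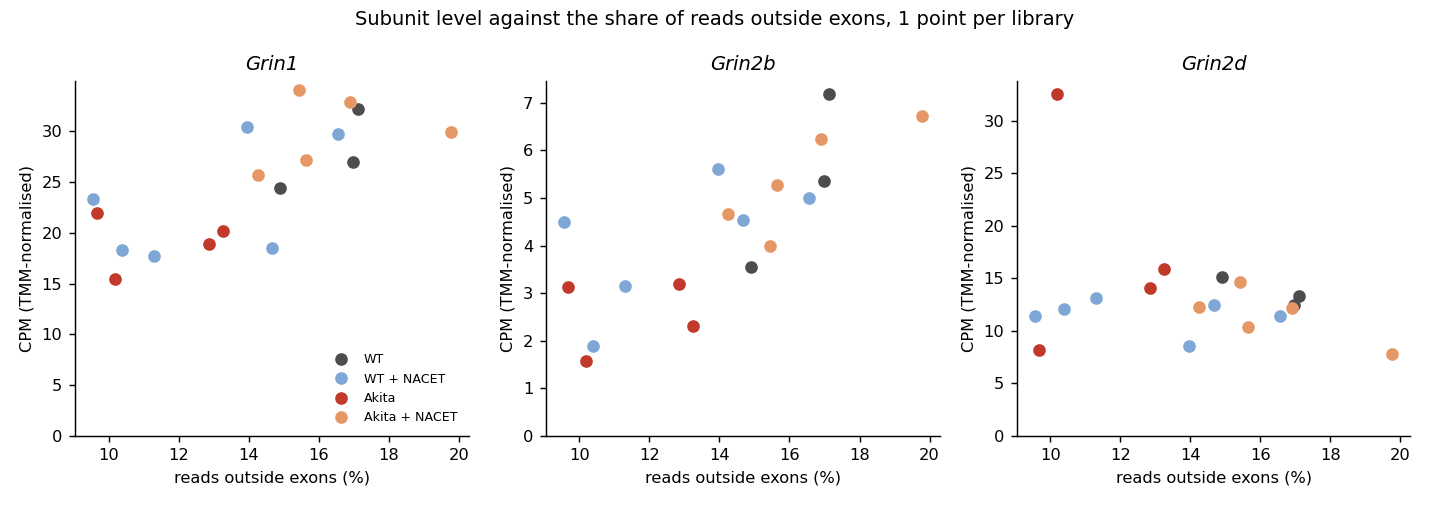
Level in CPM (vertical axes, from 0) of Grin1, Grin2b and Grin2d against the share of reads outside annotated exons in % (horizontal axes), 1 point per library, coloured by group. Akita libraries lie between 9.67 and 13.3% and Akita + NACET libraries between 14.3 and 19.8%, with no overlap on the horizontal axis.

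The genes whose pattern across the 18 libraries was most like that of a member were found by the Pearson correlation of log2 CPM over all tested genes, as a description. For Grin1 they were Atp2b2 (r = 0.951), which encodes a plasma membrane calcium pump, Lingo2 (0.950) and Sez6l (0.949). For Grin2a they were Adam11 (r = 0.905), Robo1 (0.886) and Mast4 (0.877). For Grin2b they were Mmp16 (r = 0.946), Odz2 (0.906), which encodes a teneurin, and Gabrb1 (0.903), a GABA receptor subunit gene. For Grid1 they were Tle3 (r = 0.929), Parp8 (0.928) and Gprin3 (0.921). The points of each correlation share the libraries, their depth and their share of reads outside exons.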

How the data were processed

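Raw read counts per gene were deposited in 1 file per library. Per the study's methods, the authors selected poly(A) RNA (TruSeq RNA v2), read it from one end, aligned the reads to mm9 with TopHat2 (version 2.1.0, with Bowtie) and counted them over exons with HTSeq (version 0.11.2) without strand. Reads aligned to several places, 9.04% on average, were left out of the counts.

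Of 35006 gene names, 206 ribosomal RNA genes were removed (0.977% of counts on average), as was 1 entry with no name (0.0054%). Counts were tested in R 4.3.3 with edgeR 4.0.16: all 4 groups in 1 fit, TMM normalisation, filterByExpr (minimum count 10, minimum total 15), a robust quasi-likelihood test and Benjamini-Hochberg adjustment over the 16183 tested genes, with a threshold of 0.05. CPM are relative to the TMM-scaled library size. Correlations used log2 CPM with a prior count of 2. Exon lengths and coordinates came from the GENCODE annotation of mm9, in which 96.1% of the names were found. Fits were also made with DESeq2 1.42.0, without filter, with a mean count of at least 50, with size factors, a GC correction, the share of reads outside exons or a replicate block as a term, with ribosomal RNA genes kept, and without each library. The script for the test across genes was checked on simulated data.

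The members and gene lists were chosen with earlier results of these data known. Named were all 8 members, from each partner list up to 2 called genes with the largest increase and 2 with the largest decrease in each of 3 comparisons, and the 3 genes most like Grin1, Grin2a, Grin2b and Grid1. No 2 libraries had the same counts. The signature stretches of the remaining 2 members are not reported here.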

Additional observations from a re-analysis of the deposited data

Results flagged for a closer look

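For 6 members the NACET effect in Akita differed from that in WT by the interaction test of edgeR: on the log2 scale the effect in Akita was larger by 1.18 for Grid1, 0.92 for Grin1, 1.64 for Grin2a, 1.43 for Grin2b, 2.45 for Grin2c and 0.77 for Grin3a. The adjusted p-values ran from 0.00282 for Grid1 to 0.0493 for Grin3a. Within the genotypes, the estimates for these genes were positive in Akita and negative in WT. None passed in WT, and in Akita only Grin1, Grin2b and Grid1 did. With reads outside exons in the fit, no interaction passed.

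In 24 groups of 4 to 6 libraries, 1 value stood far from the rest of its group: Grin2d in WT + NACET replicate 4, at 8.57 CPM, the lowest of 6, where the next lowest was 11.4 CPM. By chance about 1 in 20 groups would be picked out in this way. The Grin2d value of 32.6 CPM in Akita replicate 4 was not picked out, since the other 3 Akita libraries were themselves spread from 8.16 to 15.9 CPM.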

How the results depend on the processing

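The count of members called moved with the libraries used. Leaving out 1 library at a time gave 0 to 3 members in Akita against WT, 0 to 4 in Akita + NACET against Akita, 1 to 3 in Akita + NACET against WT + NACET and 2 to 6 in the interaction. The genes called of all tested then ran from 0 to 1515, 1 to 1754, 860 to 2422 and 1699 to 3524. In WT + NACET against WT and in Akita + NACET against WT, leaving out 1 library gave 0 members each time. There 72 to 329 and 0 to 2 genes of all tested were called. With reads outside exons, as a share, added to the fit, the counts were 0 in all comparisons, and 0 genes of all tested were called in Akita against WT and in Akita + NACET against Akita. In Akita against WT, edgeR fitted to the compared groups only gave 0 members, with Grin2c no longer reaching the filter, and 148 genes of all tested in place of 1237, whereas DESeq2 fitted to the same groups gave 2 members and 1156 genes. DESeq2 fitted to all groups gave 3 members there and 2056 genes, with no adjusted p for Grin2c. In Akita + NACET against WT + NACET, 1 member was called without filter and 1 with the GC correction. Of all tested genes, 1610 of 27409 and 2189 of 16183 were called in these settings. The causes were not tested.

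The counts gave no sign that replicate numbers pair the samples, which does not show that they do not. Deviations from the group means correlated at -0.33 to 0.34 in 22 pairs with the same number, with a median of 0.00. In 97 pairs with different numbers they correlated at -0.45 to 0.45, again with a median of 0.00. A fit with the replicate number as a block called 1 member in Akita against WT, 1 in Akita + NACET against Akita, 2 in Akita + NACET against WT + NACET and 5 in the interaction. Of all tested genes it called 507, 219, 1363 and 2656 in these comparisons.

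Some estimates changed sign, not all of them near 0, and none of them was called. With reads outside exons in the fit, Grin2b was 0.021 in WT + NACET against WT and -0.015 in Akita + NACET against WT + NACET, where Grin2c was -0.048 and Grin2d 0.20, and Grin2d was 0.12 in the interaction. In Akita + NACET against WT, Grin2a was 0.034 with the block. In Akita + NACET against WT + NACET, Grin2d was 0.00018 with a mean count of at least 50 and 0.0052 in the compared groups only. Leaving out 1 library at a time, Grin2d ranged from -0.10 (without Akita replicate 4) to 0.60 in Akita against WT, from -0.61 to 0.10 (without Akita replicate 4) in the interaction and from -0.11 to 0.11 in Akita + NACET against WT + NACET. In Akita + NACET against WT the ranges were -0.47 to 0.28 for Grin2a, -0.21 to 0.28 for Grin2b and -0.029 to 0.24 for Grid1. No alternative moved the median of all genes by more than 0.039 (log2).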
